A study of Mus musculus with 6 samples.

Results

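The 38 genes described here mark cell types other than keratinocytes: dermal fibroblasts (17 genes), endothelial cells (5), melanocytes (3), immune cells (5), red cells (2), skeletal muscle (3) and fat (3). They were chosen by name from the 24354 genes of the deposited table, and all 38 were found there. The samples were epidermal cells of E18.5 mouse embryos, late in gestation, sorted by flow cytometry for a high level of α6 integrin. Libraries of total RNA were made from 3 WT samples and from 3 samples of the genotype Pik3caH1047R/H1047R, called mutant below, and all carry the strain label C57BL6. In this genotype both copies of Pik3ca, the gene of a catalytic subunit of phosphoinositide 3-kinase, carry an activating change. The labels name no promoter or Cre driver. They do not state that replicates are separate animals, so the p-values below measure the spread among these libraries only, and it could be technical.

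High α6 integrin marks basal keratinocytes, which rest on the basement membrane and use this integrin to anchor to it. Other cells lie close to that layer. Fibroblasts and their collagens fill the dermis below, vessels with endothelial cells and red cells run through it, and adipocytes and a sheet of striated muscle lie deeper. Melanocytes and Langerhans cells sit within the epidermis itself. Endothelial cells and some other types also carry α6 integrin. In a bulk library a marker can come from such cells, from their free RNA or from keratinocytes, and fewer cells of a type cannot be told apart from less RNA per cell.

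Values are FPKM, fragments per kilobase of transcript scaled to the library, so they can be set side by side between genes. The keratins of basal cells stood far above the markers. Krt5 was at 12001, 12194 and 11888 FPKM (WT) and 11360.5, 11538 and 13033 FPKM (mutant; limma adjusted p = 0.976), and Krt14 at 10682, 9828 and 10074 FPKM (WT) and 8199, 7792 and 9369 FPKM (mutant; limma adjusted p = 0.247). Itga6, the gene of the α6 integrin used for the sort, was itself lower in mutant libraries, at 157, 161 and 172 FPKM in WT, against 121, 125 and 122 FPKM (limma adjusted p = 0.00146). Of 10 basal keratinocyte genes, all tested, 5 (50%) were lower and 1 (10%) was higher, beside 22.8% and 23.2% of all genes tested. The 38 markers summed to 1586, 1401 and 1305 FPKM in WT libraries, against 1018, 977 and 1043 FPKM in mutants. These sums are 4.66 to 6.99% of the summed Krt5 and Krt14 of the same library. The deposited interval of Krt5 in mutant replicate 3 ran from 0 to 61109.9 FPKM. That of Krt14 in WT replicate 1 ran from 0 to 36955.5 FPKM. Shares and scalings that use these keratins are thus uncertain. All mutant values of Krt14 also lay below all WT values. Of the 38, 3 had a mean over the 6 libraries of at least 100 FPKM, 10 of at least 10 but under 100, 19 of at least 1 but under 10, and 6 were under 1 FPKM. Library totals were 752768, 767148 and 656761 FPKM in WT, against 542210, 538627 and 651769 FPKM in mutant libraries, with no overlap. The number of reads is unknown, and their relative depth, read from the most frequent ratio of values under 1 FPKM, was 0.979 to 1.24 of that of WT replicate 1. Rows under 200 bases long held 1.40, 1.89 and 0.659% of the FPKM in WT, against 2.60, 2.11 and 8.26% in mutant libraries.

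**Figure D1:**
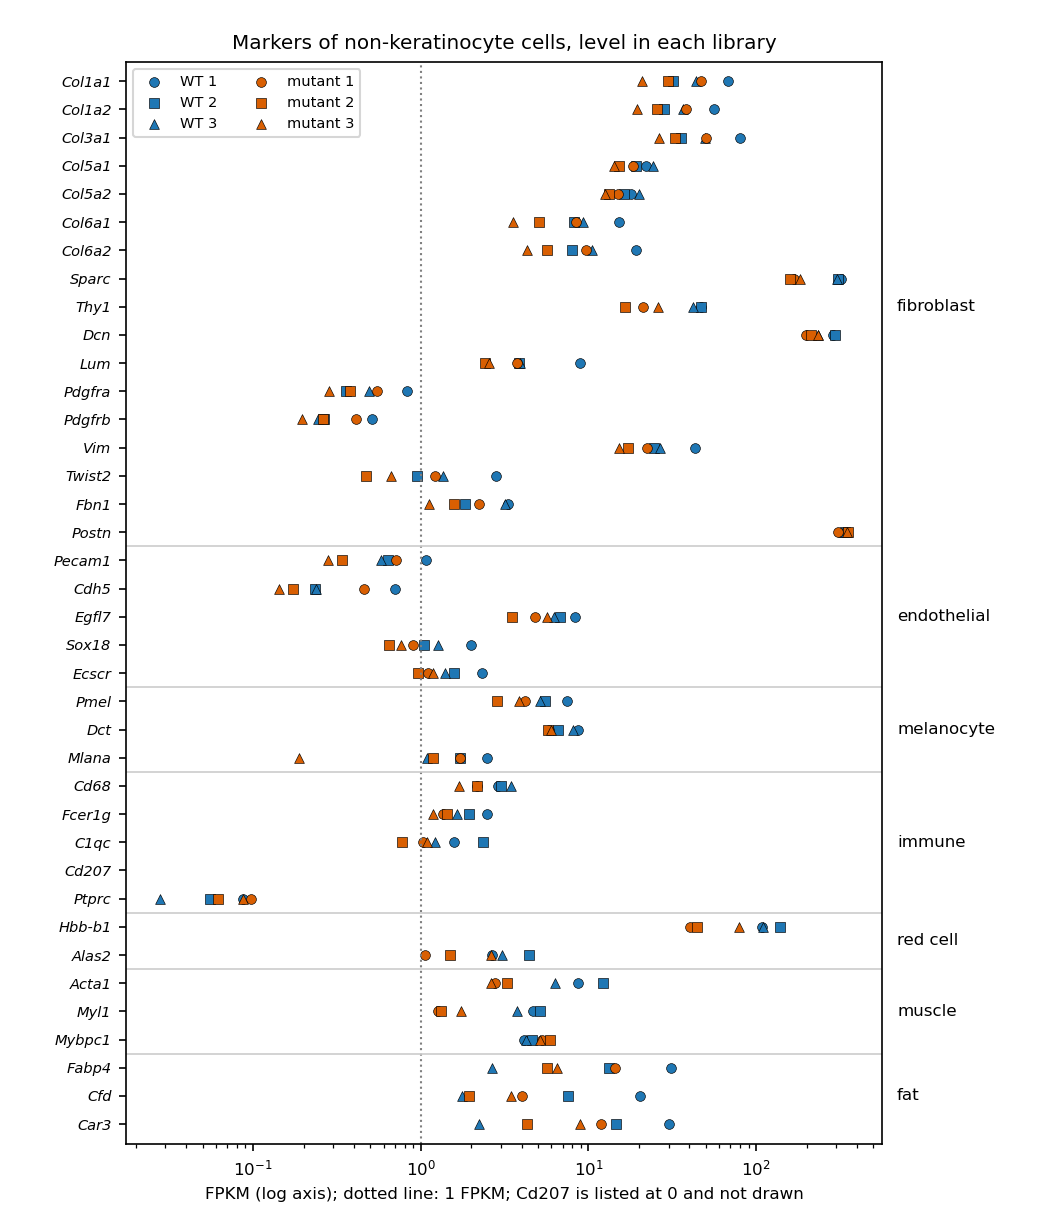
Level of each marker in each library, in FPKM on a log axis, with WT libraries in blue, mutant libraries in orange and the replicate number given by the shape. Sparc, Dcn and Postn lie above 100 FPKM in every library, whereas Pdgfra, Pdgfrb, Cdh5 and Ptprc lie below 1 FPKM in every library.

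Some markers belong to families of nearly identical genes, and their sequences show what a short read could separate. The globins carry oxygen in red cells and come in alpha and beta chains. The beta globin rows Hbb-b1 and Hbb-bs of the table share 1 locus (chromosome 7, 103826523 to 103827929), where GENCODE M21 (GRCm38) annotates Hbb-bs. The row Hbb-b2 lies where it annotates Hbb-bt (chromosome 7, 103812524 to 103813996, minus strand). Over 444 coding bases these genes differ at 1, written C417T and counted from 1 at the start codon, with the Hbb-bs base first. The alpha globin genes Hba-a1 and Hba-a2 differ at 1 of 429 coding bases, C381T. Stretches of 80 coding bases around each difference, from GENCODE M21 transcripts, are shown with the differing base in capitals:
Hbb-bs: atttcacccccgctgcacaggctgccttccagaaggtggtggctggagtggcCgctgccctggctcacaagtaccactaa
Hbb-bt: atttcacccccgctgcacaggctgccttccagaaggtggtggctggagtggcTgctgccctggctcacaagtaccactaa
Hba-a1: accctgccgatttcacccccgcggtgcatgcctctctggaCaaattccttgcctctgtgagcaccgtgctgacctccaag
Hba-a2: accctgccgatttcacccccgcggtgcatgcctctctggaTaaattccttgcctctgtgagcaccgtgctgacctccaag
The stretch without a difference was 416 bases long in the beta pair and 380 bases long in the alpha pair. Over most of their coding sequence, reads of these copies cannot be told apart.

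The muscle marker Acta1 encodes skeletal α-actin, and the cytoplasmic actins Actb and Actg1, which every cell makes, resemble it. Acta1 shares 85% of 1128 compared coding bases with Actb, with a longest identical run of 77 bases, and 83.8% with Actg1, with a longest run of 59 bases. Actb was measured at 3798, 3592 and 3574 FPKM in WT, against 1289, 1368 and 1638 FPKM in mutant libraries. Acta1 came to 0.0717 to 0.144% of the sum of Actb and Actg1 in the same library.

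Mutant libraries held less mRNA of most tested markers than WT libraries. A linear model per gene (limma) on log2(FPKM + 1) was fitted to the 11385 genes that averaged 1 FPKM or more, with Benjamini-Hochberg adjustment over all of them. Of the 38 markers, 32 were tested. At an adjusted p under 0.05, 19 were lower and 1, Mybpc1, was higher in mutant libraries, and 12 did not pass. Over all genes tested, 22.8% were lower and 23.2% higher by the same rule, and of the 10 basal keratinocyte genes 50% and 10%. The groups did not overlap for 20 of the 32, with mutant below WT in 19 and above WT in 1, beside 26.9% and 29.1% of all genes tested. The median log2 fold change (mutant minus WT) was -0.53 for the 32 markers and 0.01 for all genes tested. Of the 32, Twist2, Sox18 and C1qc reached a mean of 1 FPKM in WT but not in mutant libraries, so part of their passing the filter rests on the group in which they were high.

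**Figure D2:**
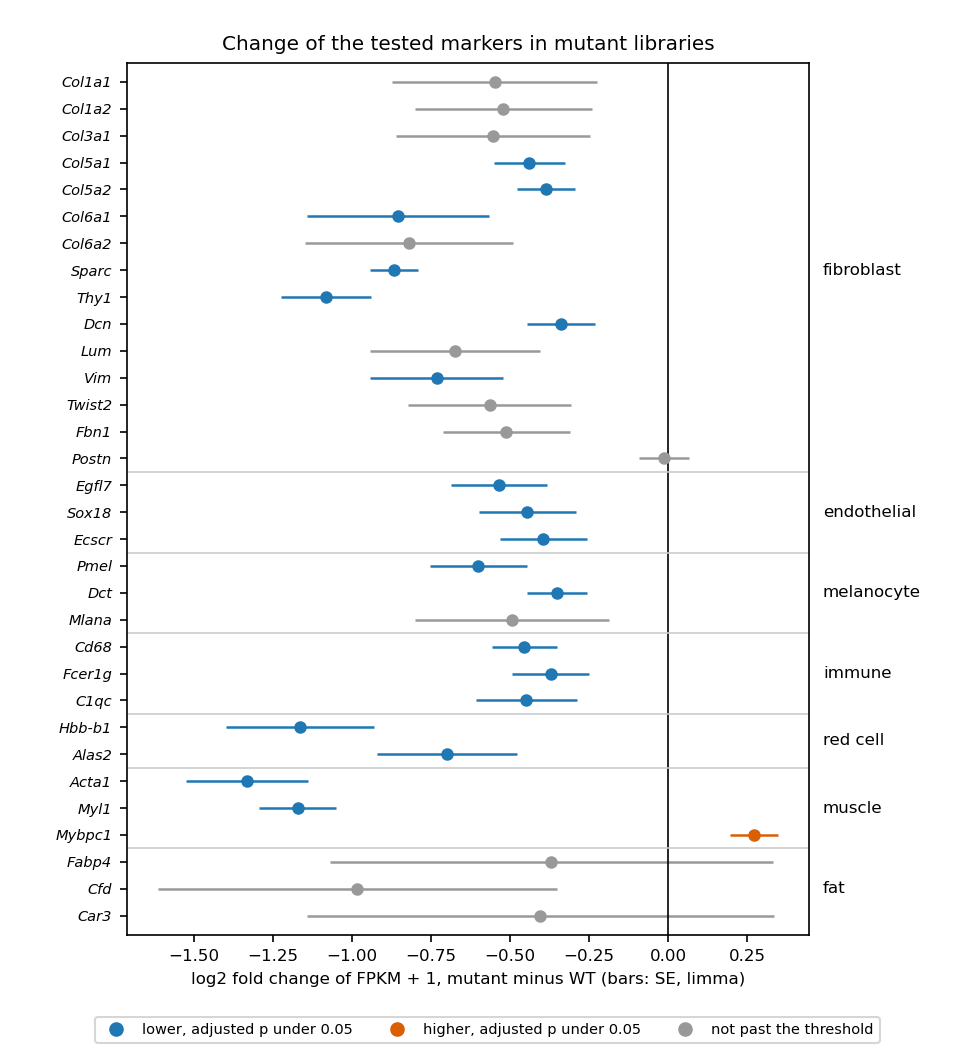
Log2 fold change of the 32 tested markers on the log2(FPKM + 1) scale, mutant minus WT, with bars for the SE, by lineage. Blue marks the 19 that were lower and orange the 1 that was higher at a limma adjusted p under 0.05, with values as deposited; the fat markers have the widest bars, and Dcn and Postn turn positive under other scalings.

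These counts rest on how the libraries are scaled. With each library scaled to the same total FPKM, the median gene moved by 0.29 on the log2 scale. Of the 32 markers, 5 stayed lower and 2, Mybpc1 and Postn, were higher, beside 839 lower and 5396 higher of 11413 genes tested. Scaled to the same sum of Krt5 and Krt14, 9 were lower and 1 higher, beside 1573 lower and 3359 higher of 11393 genes tested. Leaving out WT replicate 1 gave 11 lower and 0 higher of 30 tested, beside 2039 lower and 2068 higher of 11363 genes tested. Leaving out mutant replicate 2 gave 8 lower and 0 higher, beside 1957 lower and 1922 higher of 11379 genes tested. Of the 20 markers called, 14 lost the call at the same total FPKM and 10 at the same sum of Krt5 and Krt14. The calls of 5 markers, Sparc, Thy1, Hbb-b1, Acta1 and Myl1, were kept in each of the alternatives in which they were tested. What follows uses the deposited values.

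Among the fibroblast markers, 7 of 15 tested were lower and 0 higher, beside 22.8% and 23.2% of all genes tested. The median log2 fold change of these markers was -0.55, and they fell into different patterns over the libraries. Collagen I, the main fibre of the dermis, has the chains Col1a1 and Col1a2. Col1a1 (chromosome 11, 94936270 to 94951856, plus strand) was at 67.9, 31.9 and 43.8 FPKM in WT, against 47.1, 29.7 and 20.9 FPKM in mutant libraries. WT replicate 1 was the highest library and mutant replicate 3 the lowest, and the groups overlapped (47.9 ± 18.4 and 32.6 ± 13.3 FPKM, SD, n = 3 per group; limma adjusted p = 0.199). Its partner chain Col1a2 followed the same order of libraries, at 56.2, 28.3 and 36.6 FPKM (WT) and 37.95, 25.7 and 19.6 FPKM (mutant; limma adjusted p = 0.163). Collagen III, the fine fibre of young skin, has the single chain Col3a1, which was at 79.9, 35.4 and 49.4 FPKM (WT) and 50.0, 32.7 and 26.3 FPKM (mutant; limma adjusted p = 0.174). None of these 3 collagen genes passed, but Col1a2 did without mutant replicate 1 (adjusted p = 0.0491). Their ratios within a library stayed nearly constant. Col1a2 was at 0.806 to 0.935 times the level of Col1a1 and Col3a1 at 1.06 to 1.26 times, while Col1a1 itself differed 2.13-fold between the highest and the lowest WT library.

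Collagen VI, a beaded filament network around cells, has the chains Col6a1 and Col6a2, and collagen V, which sets fibre diameter, has Col5a1 and Col5a2. Col6a1 was at 15.3, 8.25 and 9.28 FPKM in WT, against 8.47, 5.08 and 3.55 FPKM in mutant libraries. It passed as lower (log2 fold change -0.85, SE 0.287, limma adjusted p = 0.041), although mutant replicate 1 lay inside the WT range. The call of Col6a1 ended without WT replicate 1 (adjusted p = 0.119), WT replicate 3 (0.0516), mutant replicate 2 (0.109) or mutant replicate 3 (0.109). Col6a2 had the same order of libraries, with 19.2, 7.92 and 10.5 FPKM (WT) and 9.64, 5.63 and 4.32 FPKM (mutant), and did not pass (limma adjusted p = 0.074). It passed without WT replicate 2 (adjusted p = 0.0353) and without mutant replicate 1 (0.0255). The collagen V chains varied far less between libraries of a group. Col5a1 fell from 22.03, 19.3 and 24.4 FPKM to 18.3, 15.2 and 14.2 FPKM (log2 fold change -0.44, SE 0.112, limma adjusted p = 0.014), and its call ended without mutant replicate 2 (adjusted p = 0.0528). Exons of Col5a1 overlap those of annotated genes on the other strand, and the sources used here do not say whether the libraries keep the strand. Such overlaps on the other strand touch 9 of the 38 markers. Exons of 3 markers, Col3a1, Pdgfra and Egfl7, overlap those of annotated genes on the same strand. Col5a2 fell from 17.9, 16.4 and 19.9 to 15.0, 13.3 and 12.5 FPKM (log2 fold change -0.39, SE 0.0907, limma adjusted p = 0.0101). In both chains all 3 mutant values lay below all WT values. With libraries scaled to the same total FPKM, neither passed (limma adjusted p = 0.559 for Col5a1 and 0.707 for Col5a2).

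The 3 highest markers, Postn, Sparc and Dcn, did not follow collagen I. Postn encodes periostin, a matrix protein that binds collagen. It was at 345, 340.5 and 329.9 FPKM in WT, against 308, 351 and 349 FPKM in mutant libraries, with full overlap (log2 fold change -0.01, SE 0.079, limma adjusted p = 0.904). Its sign turned under 6 of 16 alternatives, and it passed as higher with libraries scaled to the same total (log2 fold change 0.317, limma adjusted p = 0.0124). Sparc, a collagen-binding matrix protein (chromosome 11, 55394159 to 55420080, minus strand), was at 319, 307 and 304 FPKM in WT and fell to 169, 158 and 182 FPKM in mutant libraries (log2 fold change -0.87, SE 0.0746, limma adjusted p = 8.72e-05). Every mutant library lay below every WT library, and the exact permutation test (two-sided) gave p = 0.1, the smallest that 3 against 3 allows. Dcn, the small proteoglycan decorin, fell from 287, 295 and 235 to 197, 214 and 233 FPKM (log2 fold change -0.34, SE 0.107, limma adjusted p = 0.0335). The Dcn call was lost or its sign turned in 10 of 16 alternatives, among them leaving out WT replicate 1 (adjusted p = 0.103), WT replicate 2 (0.118), mutant replicate 1 (0.104) or mutant replicate 2 (0.0939). The level of Dcn was 4.19 to 11.1 times that of Col1a1 over the 6 libraries, and that of Postn 5.08 to 16.6 times, so neither kept a fixed ratio to collagen I.

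Lum encodes lumican, a proteoglycan of the same family as decorin, and it stood far lower, at 8.85, 3.86 and 3.90 FPKM in WT, against 3.73, 2.43 and 2.56 FPKM in mutant libraries (adjusted p = 0.0728, limma). Its values did not overlap between the groups, and WT replicate 1 was the highest. Lum passed as lower without WT replicate 3 (adjusted p = 0.0459). Dcn was 32.5 to 91.2 times as high as Lum. Twist2, a transcription factor of dermal fibroblasts, was at 2.83, 0.946 and 1.36 FPKM (WT) and 1.22, 0.473 and 0.661 FPKM (mutant; limma adjusted p = 0.107), and it passed without WT replicate 2 (adjusted p = 0.0445). The growth factor receptor Pdgfra, a defining marker of fibroblasts, was at 0.828, 0.356 and 0.490 FPKM in WT, against 0.549, 0.378 and 0.284 FPKM in mutant libraries, and Pdgfrb lay between 0.197 and 0.510 FPKM. Both were under the filter and were not tested. Dcn and Pdgfra, which both mark fibroblasts, thus lay at opposite ends of the levels measured.

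Thy1 encodes a surface glycoprotein of fibroblasts that T cells of the mouse also carry. It fell from 46.7, 47.2 and 42.3 FPKM in WT to 21.3, 16.5 and 26.0 FPKM in mutant libraries (log2 fold change -1.08, SE 0.142, limma adjusted p = 0.000689), with no overlap. Vim encodes vimentin, the intermediate filament of mesenchymal and many other cells, and fell from 43.3, 24.7 and 26.7 to 22.2, 17.2 and 15.3 FPKM (log2 fold change -0.73, SE 0.21, limma adjusted p = 0.023). The Vim call ended without mutant replicate 2 (adjusted p = 0.0714) or mutant replicate 3 (0.0667). The fibrillin gene Fbn1, at 2.78 ± 0.810 and 1.64 ± 0.563 FPKM (SD, n = 3 per group), did not pass (limma adjusted p = 0.0696), but did without WT replicate 2 (adjusted p = 0.0184) or mutant replicate 1 (0.0332).

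A list of 18 further fibroblast genes was read alongside. Of its 14 tested, 5 (35.7%) were lower and 1, Mmp2, was higher, with a median log2 fold change of -0.45. Over all genes tested, 22.8% were lower and 23.2% higher. Of the 18, 14 were highest in WT replicate 1 among the WT libraries. Mfap4, a microfibril protein, fell from 9.95, 4.47 and 5.57 to 4.37, 2.57 and 2.57 FPKM (limma adjusted p = 0.0313), and Dpt, the matrix protein dermatopontin, from 8.69, 3.70 and 4.67 to 3.45, 2.10 and 2.35 FPKM (limma adjusted p = 0.0311). Twist1, a transcription factor, fell from 2.24, 1.199 and 1.19 to 1.16, 0.306 and 0.377 FPKM (limma adjusted p = 0.0455). Twist1 averaged 1 FPKM or more in WT only, so it passed the filter through the group in which it was high. Each of these 3 lost the call in 5 to 8 alternatives, among them without mutant replicate 2 or mutant replicate 3. Over all alternatives their adjusted p was up to 0.142. The 2 highest of this list, Fbln1 and Fn1, matrix glycoproteins, did not pass: Fbln1 was at 81.7, 76.2 and 79.1 FPKM (WT) and 67.5, 73.4 and 72.7 FPKM (mutant; limma adjusted p = 0.0823), and Fn1 at 57.7, 56.0 and 64.8 FPKM (WT) and 59.0, 65.0 and 51.8 FPKM (mutant; limma adjusted p = 0.844).

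**Figure D3:**
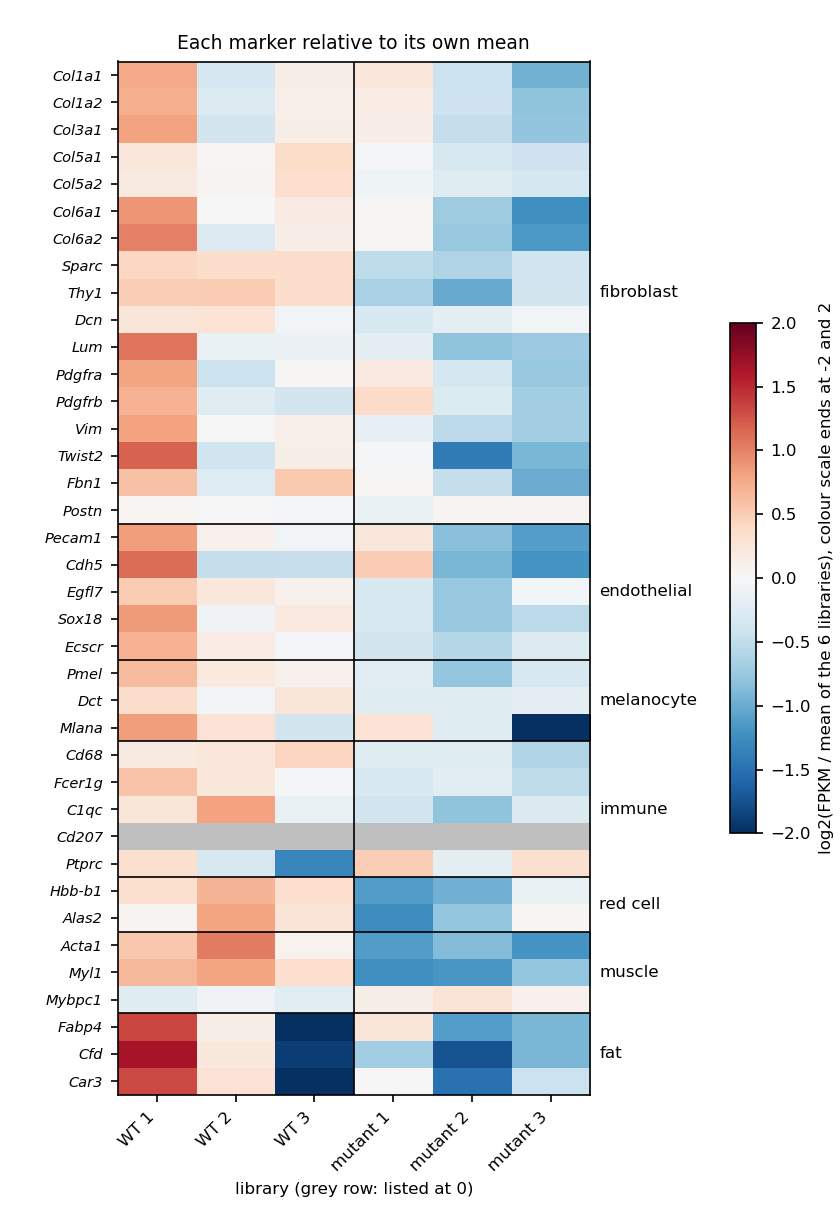
Level of each marker in each library relative to its own mean over the 6 libraries, as log2, with red above and blue below the mean. WT replicate 1 is reddest for collagen I, III and VI, Lum, Twist2 and the endothelial and fat markers, WT replicate 2 for Hbb-b1, Alas2, Acta1 and Myl1, and the rows of Postn, Dcn and Sparc show little spread within a group.

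Endothelial markers were low, and Pecam1 and Cdh5 were the lowest. Pecam1, an adhesion molecule of the vessel wall, was at 1.08, 0.640 and 0.581 FPKM in WT, against 0.709, 0.337 and 0.281 FPKM in mutant libraries. Cdh5, the endothelial cadherin, was at 0.702, 0.233 and 0.237 FPKM (WT) and 0.461, 0.173 and 0.142 FPKM (mutant). In both genes WT replicate 1 was the highest library, mutant replicate 1 the highest of the mutant ones, and the groups overlapped; their means were under the filter. The 3 that were tested were all lower, beside 22.8% of all genes tested. Of the 3, Sox18 averaged 1 FPKM or more in WT only, the group in which it was high. Egfl7, a secreted factor of vessels, fell from 8.33, 6.78 and 6.26 to 4.77, 3.50 and 5.66 FPKM (log2 fold change -0.54, SE 0.152, limma adjusted p = 0.0219). Its exons overlap those of Gm20532 and Mir126a on the same strand and those of Agpat2 on the other strand. Agpat2 was at 7.39 ± 0.816 FPKM in WT, against 7.80 ± 1.06 FPKM in mutant libraries (SD, n = 3 per group). The level of Egfl7 is therefore uncertain. Sox18, a transcription factor of vessel development, fell from 1.99, 1.05 and 1.26 to 0.895, 0.648 and 0.759 FPKM (limma adjusted p = 0.0443), and Ecscr, an endothelial surface protein, from 2.32, 1.58 and 1.40 to 1.11, 0.962 and 1.18 FPKM (limma adjusted p = 0.0454). Each of these calls was lost without some of the libraries. The call of Egfl7 ended without WT replicate 1 (adjusted p = 0.0703) or mutant replicate 2 (0.0577). That of Sox18 ended without WT replicate 3 or any of the mutant libraries (adjusted p = 0.0581 to 0.125), and without WT replicate 1 its mean was under the filter. Ecscr kept its call without WT replicate 3, but not without each of the other 5 libraries in turn (adjusted p = 0.0625 to 0.128). All 13 further endothelial genes had a mean under 1 FPKM. The highest were Eng, a receptor of vessels, at 0.910, 0.564 and 0.671 FPKM (WT) and 0.643, 0.334 and 0.319 FPKM (mutant), and Lyve1, a lymphatic receptor, at 0.856, 0.321 and 0.412 FPKM (WT) and 0.690, 0.654 and 0.528 FPKM (mutant).

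Melanocytes make pigment in the hair follicle and, before birth, in the epidermis. The enzyme gene Dct, which acts in melanin synthesis (chromosome 14, 118012790 to 118052246, minus strand), fell from 8.65, 6.59 and 8.10 FPKM in WT to 5.79, 5.77 and 5.999 FPKM in mutant libraries (log2 fold change -0.35, SE 0.094, limma adjusted p = 0.0175), with no overlap. Its call ended without WT replicate 1 (adjusted p = 0.0559) or mutant replicate 2 (0.0575). Pmel, the protein of the melanosome fibrils, fell from 7.47, 5.50 and 5.11 to 4.17, 2.83 and 3.88 FPKM (log2 fold change -0.60, SE 0.152, limma adjusted p = 0.014). Cdk2 and Dgka overlap exons of Pmel from the other strand and were far higher, at 46.0 ± 0.469 and 49.2 ± 2.11 FPKM in WT libraries (SD, n = 3 each), which leaves the level of Pmel uncertain. The deposited interval of Pmel in WT replicate 1 ran from 0 to 16.3 FPKM. Mlana, a melanosome membrane protein, was at 2.49, 1.71 and 1.08 FPKM (WT) and 1.71, 1.18 and 0.189 FPKM (mutant) and did not pass (limma adjusted p = 0.222); mutant replicate 3 was the lowest of all libraries. Of 9 further melanocyte genes, none had a mean of 1 FPKM or more; Tyrp1, another enzyme of the pathway, was at 1.84, 1.21 and 1.021 FPKM in WT, against 0.879, 0.445 and 0.555 FPKM in mutant libraries, and the transcription factor Mitf at 0.902, 0.612 and 0.743 FPKM (WT) and 0.917, 0.838 and 0.795 FPKM (mutant).

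Immune markers were near the lower end of the measured range. Cd207, the langerin gene that defines mature Langerhans cells, was listed at 0 in all 6 libraries. Ptprc, the gene of CD45 on all white blood cells, was at 0.0872, 0.0555 and 0.0280 FPKM in WT, against 0.0976, 0.0614 and 0.0871 FPKM in mutant libraries and was not tested. The tested members were all lower, beside 22.8% of all genes tested. Among these members, C1qc averaged 1 FPKM or more in WT only, the group in which it was high. Cd68, a lysosomal protein of macrophages, fell from 2.90, 3.01 and 3.46 to 2.18, 2.18 and 1.68 FPKM (log2 fold change -0.46, SE 0.102, limma adjusted p = 0.00828). The Cd68 call was kept without each library in turn. It ended with libraries scaled to the same total FPKM (limma adjusted p = 0.279) or the same sum of Krt5 and Krt14 (0.0558). Fcer1g, a signalling chain of Fc receptors, fell from 2.49, 1.94 and 1.65 to 1.35, 1.44 and 1.18 FPKM (limma adjusted p = 0.0369), and the complement gene C1qc from 1.59, 2.33 and 1.22 to 1.03, 0.770 and 1.09 FPKM (limma adjusted p = 0.0493). Fcer1g and C1qc lost the call without each library in turn other than WT replicate 3; over those fits their adjusted p was 0.0637 to 0.146. Of 14 further immune genes, 4 were tested and 0 passed in limma (1 at an unadjusted p under 0.05). The highest were the class II invariant chain Cd74, at 4.32, 3.09 and 2.86 FPKM (WT) and 3.19, 3.15 and 3.405 FPKM (mutant; limma adjusted p = 0.791), and the adaptor Tyrobp, at 3.405, 1.37 and 1.94 FPKM (WT) and 1.70, 1.44 and 0.673 FPKM (mutant; limma adjusted p = 0.147).

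Mast cells, which hold granules of proteases, have no gene among the 38. Of 5 mast cell genes, the 4 protease genes were tested and were lower in mutant libraries, beside 22.8% of all genes tested. The other, Ms4a2, a chain of the IgE receptor, was under the filter, at 0.0243, 0.0248 and 0 FPKM (WT) and 0.0785, 0.0196 and 0 FPKM (mutant). The protease Cma1 was at 19.5, 16.1 and 8.24 FPKM in WT, against 7.22, 5.75 and 6.996 FPKM in mutant libraries (adjusted p = 0.0185, limma), and Tpsb2, a tryptase, at 17.8, 15.0 and 7.49 FPKM (WT) and 6.43, 3.31 and 5.52 FPKM (mutant; limma adjusted p = 0.0138). Cpa3, a carboxypeptidase, was at 15.8, 15.3 and 8.06 FPKM (WT) and 8.04, 5.17 and 7.19 FPKM (mutant; limma adjusted p = 0.0267), and Mcpt4, a chymase, at 7.69, 5.82 and 3.88 FPKM (WT) and 3.84, 1.78 and 2.73 FPKM (mutant; limma adjusted p = 0.0244). In each of the 4, WT replicate 3 was the lowest WT library and no WT value reached down to the mutant values. The chymase and tryptase genes have close relatives, so their single values are uncertain. Tpsb2 kept its call in each of 16 alternatives, while Cma1, Cpa3 and Mcpt4 lost theirs without WT replicate 1, WT replicate 2 or mutant replicate 2, and Mcpt4 also without mutant replicate 3 (adjusted p of up to 0.0931 over the alternatives). Cpa3 and Mcpt4 also lost the call with no filter on low values. The same held with libraries scaled to the same total FPKM, with or without rows under 200 bases.

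Both red cell markers were lower in mutant libraries, beside 22.8% of all genes tested. Hbb-b1 was at 108, 139 and 109 FPKM in WT, against 40.1, 44.5 and 79.0 FPKM in mutant libraries (log2 fold change -1.16, SE 0.234, limma adjusted p = 0.00497). WT replicate 2 was the highest, and mutant replicate 3 the highest of its group, below all WT values. The neighbouring row Hbb-bs at the same locus held 8.29, 25.2 and 27.2 FPKM in WT, against 7.44, 12.9 and 8.28 FPKM in mutant libraries, and Hbb-b2 held 28.7, 37.5 and 32.1 FPKM (WT) and 12.1, 15.6 and 25.2 FPKM (mutant). Hbb-b2 was lower (limma adjusted p = 0.0128), and Hbb-b1 and Hbb-b2 kept their calls in each of 16 alternatives. The sum of these 3 beta globin rows, which takes in reads assigned to any of the copies, was 145, 202 and 169 FPKM in WT, against 59.7, 72.9 and 112 FPKM in mutant libraries, 2.10 times as high in WT (exact permutation test, two-sided, p = 0.1, n = 3 per group).

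The alpha globin rows differed more between libraries one by one than in sum. Hba-a1 was at 21.0, 74.2 and 90.3 FPKM in WT, against 0.541, 9.49 and 28.9 FPKM in mutant libraries, and Hba-a2 at 61.7, 32.6 and 0.0352 FPKM (WT) and 28.9, 24.9 and 12.5 FPKM (mutant). Within each group, the higher Hba-a1 was in a library, the lower was Hba-a2, and neither row passed (limma adjusted p = 0.0529 and 0.667). The table lists both at chromosome 11, 32283672 to 32284493, whereas GENCODE M21 places Hba-a2 at 32296489 to 32297298. Their sum was 82.8, 107 and 90.4 FPKM in WT, against 29.5, 34.3 and 41.5 FPKM in mutant libraries, 2.66 times as high in WT (exact permutation test, two-sided, p = 0.1, n = 3 per group). The sums of alpha and of beta globin thus both had all mutant libraries below all WT libraries, and both were highest in WT replicate 2 and, within the mutant group, in mutant replicate 3. Both sums were formed after the single values were seen. Alas2, the red cell enzyme that starts haem synthesis, was at 2.65, 4.41 and 3.05 FPKM in WT, against 1.06, 1.49 and 2.63 FPKM in mutant libraries (log2 fold change -0.70, SE 0.222, limma adjusted p = 0.0332). Within each group the libraries ranked as they did for the beta globin sum, but mutant replicate 3 came close to the lowest WT library. The Alas2 call ended without WT replicate 2 (adjusted p = 0.0986), mutant replicate 1 (0.089) or mutant replicate 2 (0.0973). Exons of Alas2 overlap those of Apex2 on the other strand, which fell from 10.6, 10.8 and 10.5 to 6.86, 7.71 and 8.04 FPKM (limma adjusted p = 0.00153); its part in the Alas2 value was not tested. Of 10 further red cell genes, 3 were tested and 1, Hbb-b2, was lower, beside 22.8% of all genes tested. The embryonic globins Hbb-y and Hbb-bh1 were listed at 0 in all 6 libraries.

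**Figure D4:**
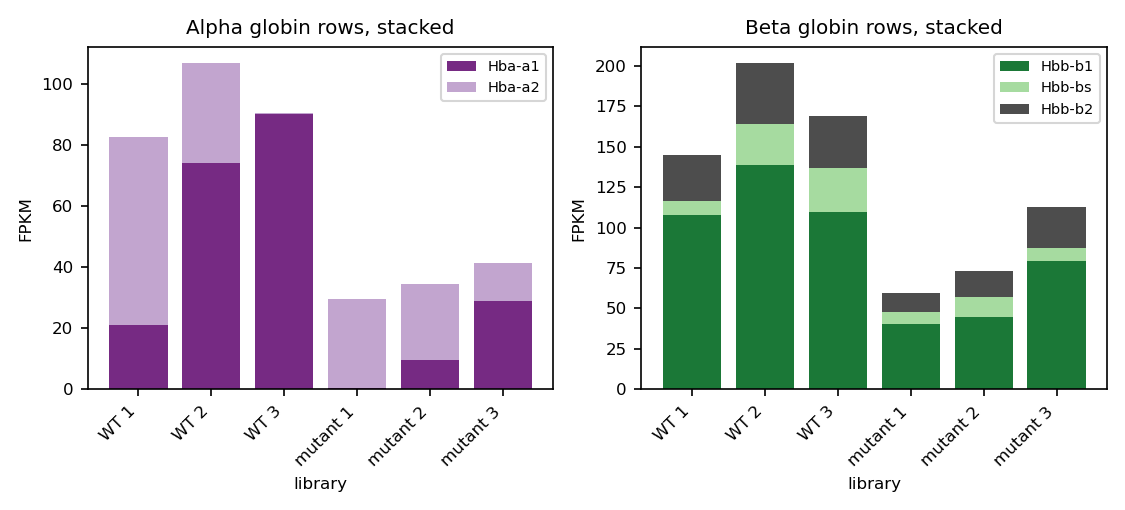
FPKM of the alpha globin rows (left) and beta globin rows (right) in each library, stacked so that the bar height is their sum. Hba-a1 and Hba-a2 divide the alpha sum differently in every library, while the sum is 82.8 FPKM or more in WT and 41.5 FPKM or less in mutant libraries.

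Of the 3 skeletal muscle markers, 2 fell and 1 rose, beside 22.8% lower and 23.2% higher of all genes tested. Acta1 (chromosome 8, 123891758 to 123894775, minus strand) was at 8.68, 12.2 and 6.30 FPKM in WT, against 2.77, 3.28 and 2.64 FPKM in mutant libraries (log2 fold change -1.33, SE 0.192, limma adjusted p = 0.00113). Myl1, a myosin light chain of fast fibres (chromosome 1, 66924296 to 66945056, minus strand), was at 4.66, 5.15 and 3.76 FPKM (WT) and 1.27, 1.33 and 1.74 FPKM (mutant) (log2 fold change -1.17, SE 0.122, limma adjusted p = 0.000232). The means were 3.13 and 3.12 times as high in WT, with no overlap in either gene, and WT replicate 2 was the highest library in both. Over the same groups Actb was 2.55 times and Actg1 2.73 times as high in WT. The share of Acta1 in the sum of Actb and Actg1 did not separate the groups, at 0.106 ± 0.0351% in WT and 0.0908 ± 0.0173% in mutant libraries (SD, n = 3 per group; exact permutation test, two-sided, p = 0.6). The part of reads shared between the actins in the Acta1 value was not tested. Mybpc1, a myosin-binding protein of slow fibres, went the other way, from 4.13, 4.63 and 4.23 FPKM in WT to 5.29, 5.86 and 5.16 FPKM in mutant libraries (log2 fold change 0.27, SE 0.0759, limma adjusted p = 0.0206). Its values varied little within a group, and its call ended without WT replicate 1 (adjusted p = 0.0638) or mutant replicate 2 (0.0805). An annotated gene overlaps its exons on the other strand.

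Among 13 further muscle genes, 5 were tested and 3 were lower, beside 22.8% of all genes tested. The troponin Tnnc2 fell from 2.97, 4.40 and 2.495 FPKM to 1.08, 1.43 and 1.199 FPKM (limma adjusted p = 0.00265) and Tnnt3 from 2.03, 3.24 and 1.84 to 0.922, 0.874 and 1.25 FPKM (limma adjusted p = 0.00827), both highest in WT replicate 2 like Acta1 and Myl1. The troponin Tnni2 fell from 7.31, 7.37 and 8.90 to 5.49, 6.59 and 6.53 FPKM (limma adjusted p = 0.0367). But its call was lost or its sign turned in 8 of 16 alternatives. Among them were the fits without WT replicate 2, WT replicate 3, mutant replicate 1 or mutant replicate 2. The call was also lost with no filter on low values, the same total FPKM or the same sum of Krt5 and Krt14. The sign turned at the same total without rows under 200 bases. Over all alternatives the adjusted p of Tnni2 was up to 0.965. Mylpf, a light chain of fast fibres, was at 11.5, 7.40 and 4.93 FPKM (WT) and 5.01, 5.78 and 5.05 FPKM (mutant; limma adjusted p = 0.15) and was highest in WT replicate 1. The giant sarcomere genes Ttn and Neb were at 0.0126 and 0.0274 FPKM on average over the 6 libraries.

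Fat markers differed more between libraries of 1 genotype than between genotypes. Fabp4, the fatty acid binding protein of adipocytes (chromosome 3, 10204343 to 10208576, minus strand), was at 30.8, 13.2 and 2.68 FPKM in WT, against 14.4, 5.69 and 6.47 FPKM in mutant libraries. Car3, a carbonic anhydrase abundant in fat, was at 30.0, 14.6 and 2.24 FPKM (WT) and 11.9, 4.28 and 8.92 FPKM (mutant), and Cfd, the adipocyte protease adipsin, at 20.3, 7.56 and 1.76 FPKM (WT) and 3.998, 1.94 and 3.45 FPKM (mutant). In all 3 genes WT replicate 1 was the highest of the 6 libraries and WT replicate 3 the lowest, with a difference of 11.5-fold to 13.4-fold, beside a median of 1.15-fold between the highest and lowest WT library over all genes tested. Deposited intervals of WT libraries did not overlap for 2 of the 3 fat genes, against 0.211% of all genes tested. None of the 3 passed in limma (adjusted p = 0.235 to 0.688), and 0 had an unadjusted p under 0.05. Without WT replicate 1 the fold changes of Fabp4 and Car3 turned positive (0.343 and 0.304 on the log2 scale; adjusted p = 0.67 and 0.74). Without WT replicate 3, Cfd (adjusted p = 0.00861) and Car3 (0.0315) passed as lower. The table's locus of Cfd spans 45 other protein-coding genes, so its position is not that of the gene alone. The deposited interval of Cfd in WT replicate 1 ran from 0 to 487 FPKM, which leaves its level, spread and calls uncertain.

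Further adipocyte genes had a like order of WT libraries. Retn, the hormone resistin, was at 9.36, 3.64 and 1.11 FPKM in WT, against 2.21, 1.27 and 0.903 FPKM in mutant libraries (adjusted p = 0.153, limma). Lpl, lipoprotein lipase, which other tissues also make, was at 3.93, 2.90 and 1.74 FPKM (WT) and 3.74, 2.82 and 2.32 FPKM (mutant; limma adjusted p = 0.83). Of 8 further fat genes, 7 were highest in WT replicate 1 among the WT libraries and 8 were lowest in WT replicate 3. In limma, 3 were tested and 0 passed (0 at an unadjusted p under 0.05). Car3 stayed at 0.753 to 1.38 times the level of Fabp4 in the same library, while Fabp4 ranged from 0.0612 to 0.454 times the level of Col1a1, so the fat and collagen markers did not keep a common ratio.

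The other lists of cell types near the epidermis were those of pericytes, Schwann and nerve cells and Merkel cells. Of 7 pericyte genes, the adhesion molecule Mcam was lower (72.2, 75.6 and 89.6 to 44.4, 45.7 and 48.2 FPKM, limma adjusted p = 0.000347) and the receptor Notch3 higher (6.74, 5.97 and 7.33 to 20.7, 17.3 and 14.0 FPKM, limma adjusted p = 0.000267), while Rgs5, Kcnj8 and Abcc9 had means of 0.109 to 0.244 FPKM. Among 6 Schwann and nerve genes, the receptor Erbb3 was lower (51.2, 49.0 and 55.6 to 35.0, 32.7 and 29.4 FPKM, limma adjusted p = 0.000456) and the adhesion molecule Ncam1 higher (1.72, 1.91 and 1.94 to 2.71, 3.16 and 2.23 FPKM, limma adjusted p = 0.0267). Of 6 Merkel cell genes, Krt8 was higher, from 1.01, 0.620 and 1.18 to 6.05, 2.29 and 1.68 FPKM (limma adjusted p = 0.0313). Mutant replicate 1 lay well above the rest. The Krt8 call ended without WT replicate 1, without WT replicate 2 or with no filter on low values. Over all alternatives its adjusted p was up to 0.0869. Krt8 averaged 1 FPKM or more in mutant libraries only, so it passed the filter through the group in which it was high. Its partner Krt18 was at 1.54, 1.52 and 0.983 FPKM (WT) and 6.61, 0.547 and 1.14 FPKM (mutant; limma adjusted p = 0.622), and Krt20, Atoh1, Sox2 and Isl1 had means of 0.0883 to 0.175 FPKM.

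Members of different lineages peaked in different libraries. In the WT group, WT replicate 1 was the highest library for 26 of the 37 markers above 0, WT replicate 2 for 8 and WT replicate 3 for 3. Over all genes tested it was the highest for 32.9%, WT replicate 2 for 29.5% and WT replicate 3 for 37.6%. WT replicate 1 led 13 of 17 fibroblast, 5 of 5 endothelial, 3 of 3 melanocyte and 3 of 3 fat markers, whereas WT replicate 2 led both red cell markers and all 3 muscle markers. The further lists of muscle and red cell genes differed from these members. Of 13 further muscle genes, 8 were highest in WT replicate 1 and 3 in WT replicate 2. Of 10 further red cell genes, 4 were highest in WT replicate 3, 3 in WT replicate 2 and 1 in WT replicate 1. Of these lists, 8 muscle and 7 red cell genes were under the filter. In the mutant group, mutant replicate 1 was the highest for 23 markers, mutant replicate 3 for 10 and mutant replicate 2 for 4. Over all genes tested these shares were 29.8%, 42.8% and 27.4%. The median ratio of the highest to the lowest library was 1.71 in WT and 1.51 in mutant libraries for the 32 tested markers, beside 1.15 and 1.15 for all genes tested. Markers of 1 lineage may share a source, so these counts describe the libraries and are not taken as independent observations.

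Summed by lineage, the levels spanned a wide range. Fibroblast markers summed to 1336, 1168 and 1141 FPKM in WT, against 913, 889 and 911 FPKM in mutant libraries, most of it from Postn, Sparc and Dcn. Red cell markers summed to 111, 143 and 112 FPKM (WT) and 41.1, 45.9 and 81.7 FPKM (mutant), and fat markers to 81.2, 35.4 and 6.67 FPKM (WT) and 30.3, 11.9 and 18.8 FPKM (mutant). Muscle markers came to 17.5, 22.003 and 14.3 FPKM (WT) and 9.34, 10.5 and 9.54 FPKM (mutant), and melanocyte markers to 18.6, 13.8 and 14.3 FPKM (WT) and 11.7, 9.78 and 10.1 FPKM (mutant). The lowest sums were those of endothelial markers, at 14.4, 10.3 and 9.74 FPKM (WT) and 7.94, 5.62 and 8.02 FPKM (mutant), and immune markers, at 7.06, 7.34 and 6.35 FPKM (WT) and 4.66, 4.45 and 4.04 FPKM (mutant). In FPKM, the sums of all lineages other than fat had every mutant library below every WT library. So did the library totals and 26.9% of the single genes tested. The sums of fat overlapped. As a percentage of the library's total FPKM, the groups also overlapped for fibroblast markers (0.152 to 0.178% in WT and 0.1398 to 0.168% in mutant libraries), endothelial markers and melanocyte markers, and did not for immune, red cell and muscle markers. A sum follows its most abundant gene and says nothing of the number of cells.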

How the data were processed

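RNA of α6 integrin-high epidermal cells was sequenced in 3 WT and 3 mutant libraries, per the labels. Each gene has 1 FPKM value per library in the authors' deposited table, with lower and upper bounds beside it, per the file headers. TopHat, Cufflinks and the build mm9 are named in the submitters' processing notes. Versions, annotation, read length and strand setting: not given in the sources used here. Of 23315 symbols found in GENCODE M21 (GRCm38), 98.9% overlapped the gene of that name, so positions are read as GRCm38, with 1 added to each start. No member had a status other than OK.

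limma 3.58.1 in R 4.3.3 was fitted on log2(FPKM + 1) for the 11385 genes averaging 1 FPKM or more (empirical Bayes with a trend, two-sided, Benjamini-Hochberg, threshold 0.05). The pseudocount understates changes of low genes. The procedure was tested on simulated data. FPKM values carry no counts, so count models were left out. Folds given as ratios are of mean FPKM. Single sums and ratios were compared with exact permutation tests. Coding sequences are the longest open reading frames of GENCODE M21 transcripts. Tables and figures used Python 3.11.15 with pandas 2.3.3, scipy 1.17.1 and matplotlib 3.10.9.

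The members, the lists of 120 further markers (119 found) and the tests were chosen with earlier results of these data known. Values in every library are given for members past the threshold, the highest member of each lineage, defining markers with a mean of 1 FPKM or more and, of the further markers, the 2 highest per lineage and those past the threshold that also changed at least 2-fold without overlap. Other genes named in the text, among them the actins, Hbb-bs and genes overlapping a member, were chosen after values were seen. Some values are not reported here.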

Additional observations from a re-analysis of the deposited data

How the results depend on the processing

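Over 16 alternatives, the log2 fold changes of 28 of the 32 tested members kept their sign; the exceptions were Dcn, Postn, Fabp4 and Car3. Of the 20 members called, 5 kept the call in every alternative in which they were tested. The count of 19 lower members became 10 with no filter on low values, 11 with a mean of at least 5 FPKM, 5 with libraries scaled to the same total FPKM, also without rows under 200 bases, and 9 with the same sum of Krt5 and Krt14. Where the filter was raised or dropped, the number of genes tested changed; in the others the cause was not tested. The 1 higher member became 0 at a mean of at least 5 FPKM and 2 under quantile normalization and under both scalings to the same total. Over all genes, 2592 lower became 839 with the same total, also without rows under 200 bases, and 1573 with the same sum of Krt5 and Krt14, and 2642 higher became 5396 and 6599 under the first and second of these.

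Leaving out each library in turn gave 8 to 20 lower and 0 to 1 higher members, and 1957 to 2610 lower and 1922 to 2597 higher genes. Values that changed sign were those of Dcn under quantile normalization (0.0213) and the same total without rows under 200 bases (0.0372), and of Postn under quantile normalization (0.345), the same total (0.317), the same total without rows under 200 bases (0.362) and the same sum of Krt5 and Krt14 (0.111). Leaving out 1 library gave log2 fold changes of -0.0459 to 0.0468 for Postn, -1.21 to 0.343 for Fabp4 and -1.33 to 0.304 for Car3, the highest of the last 2 without WT replicate 1. With the replicate number as a block, 21 members were lower and 1 higher, and 1909 genes lower and 1889 higher. Under the block Col1a2, Col3a1, Col6a2, Lum, Twist2 and Mlana passed as lower (adjusted p = 0.00769 to 0.0398), Dcn, Ecscr, Fcer1g and C1qc did not pass (0.0523 to 0.104), and 11 fibroblast members were lower in place of 7. The numbers were not shown to pair the samples: deviations of same-numbered libraries correlated at 0.127, 0.122 and -0.00735, and WT replicate 3 correlated best with mutant replicate 1 (0.0619). The number of reads per library is unknown, which limits the low members such as Ptprc.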
